A study of Homo sapiens with 12 samples.

Results

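The 10 genes described here encode chaperones, folding enzymes and regulators of the endoplasmic reticulum (ER) that are classical targets of the unfolded protein response (UPR): HSPA5, HSP90B1, PDIA4, CALR, SDF2L1, CRELD2, DNAJB9, DNAJC3, HERPUD1 and XBP1. They were taken by symbol from a raw count table of 53717 genes, each symbol had an entry of its own, and all 10 passed the filter on low counts that 17264 genes passed. Their RNA was measured in H9 cells, an established line of human embryonic stem cells kept in RSeT, a commercial medium for naive-like culture. The cells carried 1 of 3 fluorescently labelled oligonucleotides, with 4 libraries of poly(A) RNA per group. ASO-L1 is antisense to the RNA of the retrotransposon LINE1, sO-L1 carries the sense sequence of that element, and the control antisense oligonucleotide is named ASO-Ctr. In all 3 groups the oligonucleotide was given at 25 nM by lipofection and transfected cells were sorted 48 h later. All 3 groups also received 0.7 uM trans-ISRIB, which restores translation when the integrated stress response (ISR) has slowed it, together with 5 uM emricasan, a caspase inhibitor, and 10 uM Y-27632, an inhibitor of the kinase ROCK. These compounds were taken away after 24 h, so controls and ASO-L1 cells share them. Every library comes from 1 cell line, and no entry of the table counts LINE1, so the level of the oligonucleotide's own target was not analysed here.

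The UPR adjusts the folding capacity of the ER to the load of proteins entering it. Unfolded proteins draw the chaperone HSPA5 (BiP) away from the sensors ATF6, IRE1 (the product of ERN1) and PERK (the product of EIF2AK3). ATF6 is then cut in the Golgi and enters the nucleus, IRE1 splices XBP1 messenger RNA into the form that encodes an active transcription factor, and PERK phosphorylates eIF2alpha, which slows translation and favours that of ATF4. ATF6 and spliced XBP1 act with NF-Y at the ER stress response element (ERSE) of chaperone genes. ATF4 drives a separate set of genes for amino acid supply, redox balance and cell death, and can be reached by other kinases of the ISR without any ER stress. Counts per gene do not separate spliced from unspliced XBP1 RNA, so the output of IRE1 on XBP1 was not measured here.

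Most of the 10 promoters hold a form of this element. RefSeq sequences of the 250 bases before the most upstream annotated start (GRCh38.p14) were found for all 10 genes and searched on both strands for the ERSE (CCAAT, 9 bases of any kind, CCACG), for the shorter ERSE-II (ATTGG, 1 base of any kind, CCACG) and for TGACGTGG, the core of the UPR element bound by spliced XBP1. The 4 promoters below were chosen because they show the ERSE of both major ER chaperones and the ERSE-II of a pair of genes whose RNA moved in opposite directions under ASO-L1. Each reads 5′ to 3′ on the strand of its gene and ends at the base before the start, and capitals mark the fixed bases of the elements.
HSPA5, chr9:125241344-125241593, minus strand: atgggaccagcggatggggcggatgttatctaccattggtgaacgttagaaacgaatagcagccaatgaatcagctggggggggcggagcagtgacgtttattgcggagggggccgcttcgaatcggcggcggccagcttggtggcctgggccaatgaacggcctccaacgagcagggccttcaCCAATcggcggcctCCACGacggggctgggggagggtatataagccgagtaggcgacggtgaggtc
HSP90B1, chr12:103930160-103930409, plus strand: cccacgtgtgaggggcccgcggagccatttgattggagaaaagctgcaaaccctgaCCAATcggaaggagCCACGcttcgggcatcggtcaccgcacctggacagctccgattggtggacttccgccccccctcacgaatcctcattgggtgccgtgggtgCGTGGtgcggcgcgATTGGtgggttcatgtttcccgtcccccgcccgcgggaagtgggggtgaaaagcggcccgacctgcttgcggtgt
HERPUD1, chr16:56931892-56932141, plus strand: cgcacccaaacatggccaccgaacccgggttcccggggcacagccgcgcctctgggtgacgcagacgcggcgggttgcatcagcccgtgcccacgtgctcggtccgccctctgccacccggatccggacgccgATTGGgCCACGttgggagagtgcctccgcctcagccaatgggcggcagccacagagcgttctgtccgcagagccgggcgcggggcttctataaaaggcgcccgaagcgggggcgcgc
SDF2L1, chr22:21642052-21642301, plus strand: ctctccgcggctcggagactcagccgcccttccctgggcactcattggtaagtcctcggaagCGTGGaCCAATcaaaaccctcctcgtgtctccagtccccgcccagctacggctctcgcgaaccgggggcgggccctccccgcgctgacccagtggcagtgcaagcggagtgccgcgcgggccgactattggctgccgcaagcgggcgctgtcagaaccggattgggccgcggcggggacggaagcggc
An ERSE stood in 5 of the 10 promoters. In HSPA5 it ran from 66 to 48 bases before the start on the strand of the gene, and in XBP1 from 52 to 34. HSP90B1 held 2 of them, at 194 to 176 bases on the strand of the gene and at 89 to 71 bases on the opposite strand. Those of CRELD2, at 80 to 62 bases, and CALR, at 225 to 207 bases, lay on the opposite strand. ERSE-II was found in HERPUD1, at 117 to 107 bases on the strand of the gene, and in SDF2L1, at 188 to 178 bases on the opposite strand. No ERSE or ERSE-II in this exact form was found in the windows of DNAJB9, DNAJC3 and PDIA4, and TGACGTGG was found in none of the 10. Among 27305 promoters of the same length, 0.0769% held the ERSE, 0.0549% held ERSE-II and 0.685% held TGACGTGG. The 10 genes were chosen as known targets of the UPR, so setting their matches beside these shares is no test of enrichment. The ERSE and ERSE-II share the letters CCACG, and no match of one overlapped a match of the other in these windows. A match describes the letters of the window only, and the starts that these cells use were not measured.

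**Figure D1:**
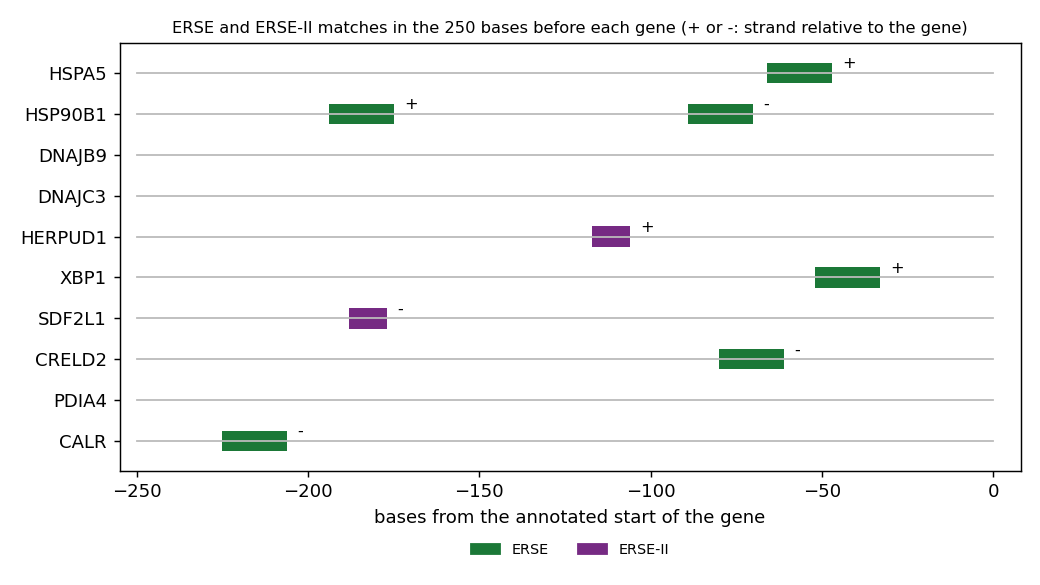
Matches to the ERSE (green) and ERSE-II (purple) in the 250 bases before the annotated start of each gene, drawn to scale along the x axis in bases, with the strand relative to the gene beside each box. HSP90B1 holds 2 ERSEs, and DNAJB9, DNAJC3 and PDIA4 hold no exact match.

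Libraries held 22.8 to 55.1 M counts in genes. Levels are given in CPM, that is, counts divided by library size after TMM scaling. On this scale 3 counts, the most that a count of 0 allows, come to 0.0534 to 0.128 CPM, a floor that covers counting error only. The 10 genes had between 369 counts (DNAJB9) and 134443 counts (HSP90B1) in a library, so none was near that floor. All 8 pluripotency markers checked lay above 1 CPM on average in each group, while LUM was at 0 and COL3A1 and DCN did not exceed 0.0687 CPM in any library. COL1A1, COL1A2 and THY1 were detected, and the 7 fibroblast markers summed to 114 to 134 CPM in ASO-L1, 103 to 133 CPM in sO-L1 and 117 to 142 CPM in ASO-Ctr. The 6 hepatic and endodermal markers summed to 2.23 to 3.80 CPM in ASO-L1, 1.01 to 2.97 CPM in sO-L1 and 0.931 to 2.58 CPM in ASO-Ctr. The 5 trophectoderm markers summed to 0.722 to 1.01 CPM in ASO-L1, 0.471 to 1.32 CPM in sO-L1 and 0.378 to 1.63 CPM in ASO-Ctr. Pluripotency markers summed to 6156 to 6723 CPM in ASO-L1, against 7147 to 7723 CPM in sO-L1 and 7416 to 7639 CPM in ASO-Ctr. Abundant genes dominate this sum, so it does not show that each marker fell. Over all libraries DNMT3B ran from 1568 to 2640 CPM and LIN28A from 1652 to 2110 CPM. POU5F1 ran from 1081 to 1305 CPM, SOX2 from 393 to 472 CPM and NANOG from 121 to 151 CPM. The part of these marker levels in the results below was not tested. Fewer cells expressing a gene and less RNA of it per cell cannot be told apart in these bulk libraries.

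Per kilobase of exon, the 10 genes differed widely in level in control cells. In ASO-Ctr libraries HSP90B1 came first at 804 CPM per kb on average, followed by CALR at 490, HSPA5 at 331 and PDIA4 at 171. XBP1 at 81.8, SDF2L1 at 33.2, CRELD2 at 21.1 and DNAJC3 at 15.5 CPM per kb came next, and HERPUD1 at 7.65 and DNAJB9 at 6.20 CPM per kb were lowest. The ranges over the 4 ASO-Ctr libraries did not overlap between any neighbours in this order. In ASO-L1 libraries the order was the same, with 527 CPM per kb for HSP90B1, 402 for CALR and 254 for HSPA5 at the upper end, and 8.94 for HERPUD1 and 5.85 for DNAJB9 at the lower end. Exon lengths are from GENCODE release 29 on GRCh38, whereas the reads were counted on hg19, so these values serve for the order only.

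ASO-L1 cells held less RNA of the major ER chaperones than both control groups, and 1 of the 10 genes, HERPUD1, moved the other way. Summed over the 10 genes, ASO-L1 libraries had 3934 ± 504 CPM, against 5375 ± 161 CPM in sO-L1 and 5382 ± 227 CPM in ASO-Ctr (SD, n = 4 each). The genes took 0.324 to 0.427% of the counts of ASO-L1 libraries, 0.518 to 0.564% in sO-L1 and 0.520 to 0.560% in ASO-Ctr. Abundant genes dominate the sum and these shares: in ASO-Ctr HSP90B1 averaged 2303 CPM, HSPA5 1295 CPM and CALR 932 CPM. HERPUD1 averaged 22.5 CPM there, so neither measure shows how the genes of low level moved. Genes were tested by edgeR (quasi-likelihood F-tests, replicate number as a block) and called at a Benjamini-Hochberg adjusted p under 0.05 over 17264 genes. Against ASO-Ctr, 7 of the 10 genes fell (HSPA5, HSP90B1, PDIA4, CALR, SDF2L1, DNAJC3 and XBP1), HERPUD1 rose, and CRELD2 and DNAJB9 were not called. Across all genes tested in that comparison 23.1% were called lower and 21.2% higher, so this is a setting in which many genes moved. For the same 8 genes the 4 ASO-L1 libraries did not overlap with the 4 ASO-Ctr libraries, where 17% of all genes lay wholly lower and 16.3% wholly higher. The median log2 fold change was -0.34 over the 10 genes and -0.00279 over all genes tested.

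Against sO-L1, the sense oligonucleotide, the same 7 genes fell, HERPUD1 rose, and CRELD2 and DNAJB9 were not called. Of all genes, 22.9% were called lower and 21.1% higher in this comparison. Again 8 of the 10 genes had no overlap between the groups, against 16.2% of all genes wholly lower and 16% wholly higher. The median log2 fold change was -0.28 over the 10 genes. Both comparisons use the same ASO-L1 libraries, so they are not independent of each other. In the authors' deposited table of ASO-L1 against sO-L1, 7 of the 10 genes were lower, 1 was higher (HERPUD1) and 2 were not called (CRELD2 and DNAJB9), at an adjusted p under 0.05. Whether the replicates were separate cultures is not stated, and all p-values measure only the spread between these samples, which may be technical. Intervals below are 95% intervals from edgeR's fit to these libraries.

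**Figure D2:**
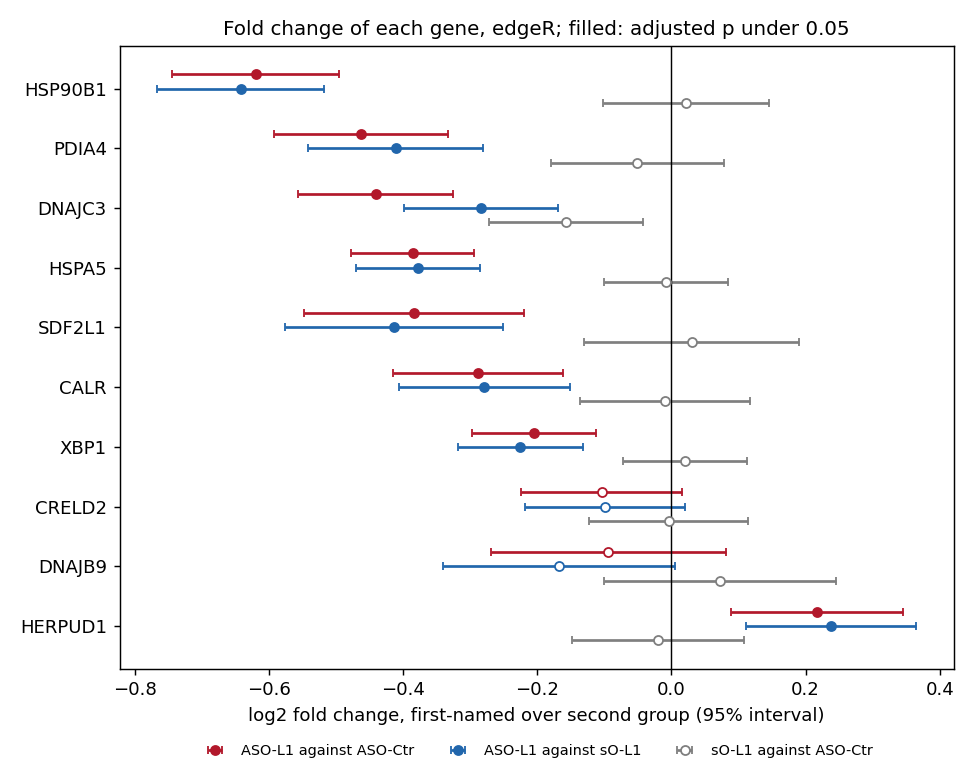
Log2 fold change (x axis) of each of the 10 genes with its 95% interval from edgeR, for ASO-L1 against ASO-Ctr (red), ASO-L1 against sO-L1 (blue) and sO-L1 against ASO-Ctr (grey); filled points had an adjusted p under 0.05. HSP90B1 has the lowest values at -0.62 and -0.64, HERPUD1 alone lies above 0 for both ASO-L1 comparisons, and no grey point is filled.

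HSPA5, the Hsp70-type chaperone that binds nascent chains in the ER and holds the UPR sensors inactive, had 868, 1039.7, 1023 and 1038 CPM in ASO-L1 replicates 1 to 4. It had 1259, 1370.4, 1310.4 and 1211 CPM in sO-L1 and 1254, 1387, 1307 and 1232 CPM in ASO-Ctr. Every ASO-L1 library lay below every library of both control groups, and replicate 1 was lowest. Relative to ASO-Ctr the level was 1.31-fold lower (log2 fold change -0.39 ± 0.04 SE, interval -0.48 to -0.29, edgeR adjusted p = 2.64e-06), and relative to sO-L1 it was 1.30-fold lower (log2 -0.38 ± 0.04 SE, adjusted p = 3.34e-06). Within the 4 replicate numbers the log2 difference from ASO-Ctr ran from -0.53 in number 1 to -0.25 in number 4.

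HSP90B1 (GRP94), the Hsp90 of the ER, which folds integrins, Toll-like receptors and other client proteins, had the largest fold change of the 10 genes in both comparisons. Its level was 1119, 1601, 1603 and 1722 CPM in ASO-L1 libraries, 2178, 2393, 2410.4 and 2353 CPM in sO-L1 libraries and 2062, 2395, 2434 and 2322 CPM in ASO-Ctr libraries. The groups did not overlap, and the highest ASO-L1 library stayed below the lowest control library. It was 1.54-fold lower than in ASO-Ctr (log2 -0.62 ± 0.06 SE, interval -0.74 to -0.50, edgeR adjusted p = 4.06e-07) and 1.56-fold lower than in sO-L1 (log2 -0.64 ± 0.06 SE, adjusted p = 3.09e-07). C12orf73, which overlaps it on the opposite strand, reached at most 17.3 CPM, and the copies named HSP90B2P and HSP90B3P at most 0.802 and 0.108 CPM.

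PDIA4 (ERp72), a protein disulfide isomerase, is the oxidative folding enzyme of the set. It had 297, 366, 379 and 405 CPM in ASO-L1 libraries, 481, 489.9, 487 and 459.5 CPM in sO-L1 libraries and 502, 499.6, 500.1 and 485 CPM in ASO-Ctr libraries. Both control groups were tightly grouped, and all ASO-L1 libraries lay below them. The level was 1.38-fold lower than in ASO-Ctr (log2 -0.46 ± 0.06 SE, adjusted p = 1.45e-05 with edgeR) and 1.33-fold lower than in sO-L1 (log2 -0.41 ± 0.06 SE, adjusted p = 4.52e-05).

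CALR (calreticulin), the soluble lectin chaperone that holds calcium and monoglucosylated glycoproteins in the ER, had 625, 773, 819 and 846 CPM in ASO-L1 libraries. Levels were 945, 918, 937 and 900.4 CPM in sO-L1 and 936, 906, 947 and 938 CPM in ASO-Ctr, with no overlap. CALR fell by 0.29 on the log2 scale against ASO-Ctr (SE 0.06, edgeR adjusted p = 0.000947) and by 0.28 against sO-L1 (SE 0.06, adjusted p = 0.00125). Replicate 1 carried part of this value. Without that ASO-L1 library the log2 fold change was -0.19 against ASO-Ctr and -0.18 against sO-L1, and CALR was still called in both comparisons.

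SDF2L1, a partner of ER DnaJ proteins in the HSPA5 cycle, had 17.4, 22.99, 24.1 and 23.5 CPM in ASO-L1 libraries. It had 28.0, 32.1, 28.6 and 28.3 CPM in sO-L1 libraries and 29.4, 29.8, 28.8 and 26.8 CPM in ASO-Ctr libraries. ASO-L1 did not overlap with either group, at 483 to 1803 counts in a library. The log2 fold change was -0.38 ± 0.08 SE against ASO-Ctr (edgeR adjusted p = 0.000748) and -0.41 ± 0.08 SE against sO-L1 (adjusted p = 0.000366). Within replicate numbers its log2 differences from ASO-Ctr had the widest spread of the 10 genes, at -0.75, -0.38, -0.25 and -0.19 in numbers 1 to 4 (SD 0.253).

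DNAJC3 (p58IPK) is an ER co-chaperone of HSPA5 that was first described as an inhibitor of the eIF2alpha kinases PKR and PERK. It had 58.3, 66.1, 63.3 and 66.8 CPM in ASO-L1 libraries, 71.1, 81.6, 80.6 and 76.6 CPM in sO-L1 libraries and 69.5, 94.98, 95.05 and 87.3 CPM in ASO-Ctr libraries. ASO-L1 lay below both other groups, and the ASO-Ctr group was spread widely because its replicate 1 was low. The log2 fold change was -0.44 ± 0.05 SE against ASO-Ctr (edgeR adjusted p = 7.03e-06) and -0.28 ± 0.05 SE against sO-L1 (adjusted p = 0.000478).

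XBP1, whose spliced messenger RNA encodes a UPR transcription factor, had 134.6, 145.8, 150.9 and 147.9 CPM in ASO-L1 libraries. Levels of 169.2, 176.8, 164.2 and 166.1 CPM were found in sO-L1 and of 156.7, 169.2, 175.0 and 166.6 CPM in ASO-Ctr. The change was small, without overlap between ASO-L1 and either group. Against ASO-Ctr the log2 fold change was -0.20 ± 0.04 SE (edgeR adjusted p = 0.00118), and the differences within replicate numbers lay between -0.22 and -0.17. Against sO-L1 it was -0.23 ± 0.04 SE (adjusted p = 0.000536), and the differences were more spread, at -0.33, -0.28, -0.12 and -0.17 in numbers 1 to 4.

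HERPUD1 (Herp), an ER membrane protein that organises the degradation of misfolded proteins and is known as a target of ATF4 as well as of ATF6, was the exception. It had 28.5, 24.0, 28.4 and 24.4 CPM in ASO-L1 libraries, 23.5, 22.1, 22.6 and 20.9 CPM in sO-L1 libraries and 22.6, 22.4, 23.6 and 21.6 CPM in ASO-Ctr libraries. The lowest ASO-L1 library lay just above the highest control library, so the separation was narrow. The level was 16.2% higher than in ASO-Ctr (log2 0.22 ± 0.06 SE, interval 0.09 to 0.34, edgeR adjusted p = 0.00774) and 17.9% higher than in sO-L1 (log2 0.24 ± 0.06 SE, adjusted p = 0.00408). It was higher in all 4 replicate numbers, and without the libraries numbered 3 the call was lost in both comparisons, at log2 fold changes of 0.20 against ASO-Ctr (adjusted p = 0.0631) and 0.21 against sO-L1 (adjusted p = 0.0539).

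CRELD2, a secreted ER stress protein with disulfide-exchange motifs, had 26.7, 31.9, 32.7 and 32.6 CPM in ASO-L1 libraries, 31.5, 33.4, 34.1 and 33.5 CPM in sO-L1 libraries and 32.3, 33.9, 32.7 and 34.1 CPM in ASO-Ctr libraries. Only ASO-L1 replicate 1 stood below the other libraries. The log2 fold change was -0.10 (interval -0.22 to 0.02, edgeR adjusted p = 0.152) against ASO-Ctr and -0.10 (interval -0.22 to 0.02, adjusted p = 0.166) against sO-L1, so CRELD2 was not called and a change of the size of HSPA5 lies outside both intervals. Without ASO-L1 replicate 1 the log2 fold change was -0.05 in both comparisons. ALG12, on the opposite strand, overlaps CRELD2 and had 19.95 to 28.3 CPM, and no source used here gives the strand setting of the counting.

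DNAJB9 (ERdj4), a J-domain co-chaperone and a classical target of spliced XBP1, had 18.4, 12.997, 14.8 and 17.3 CPM in ASO-L1 libraries. It had 19.7, 13.1, 19.0 and 20.001 CPM in sO-L1 and 15.8, 14.5, 18.0 and 19.0 CPM in ASO-Ctr. The 3 groups overlapped, with replicate 2 lowest in each. The log2 fold change was -0.09 (interval -0.27 to 0.08, edgeR adjusted p = 0.382) against ASO-Ctr and -0.17 (interval -0.34 to 0.01, adjusted p = 0.11) against sO-L1. This call depends on single libraries: DNAJB9 passed the threshold against sO-L1 without ASO-L1 replicate 1 (log2 -0.22, adjusted p = 0.0156). PNPLA8 and THAP5 overlap it on the opposite strand at 23.9 to 36.3 and 23.2 to 33.8 CPM, above the level of DNAJB9 itself.

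**Figure D3:**
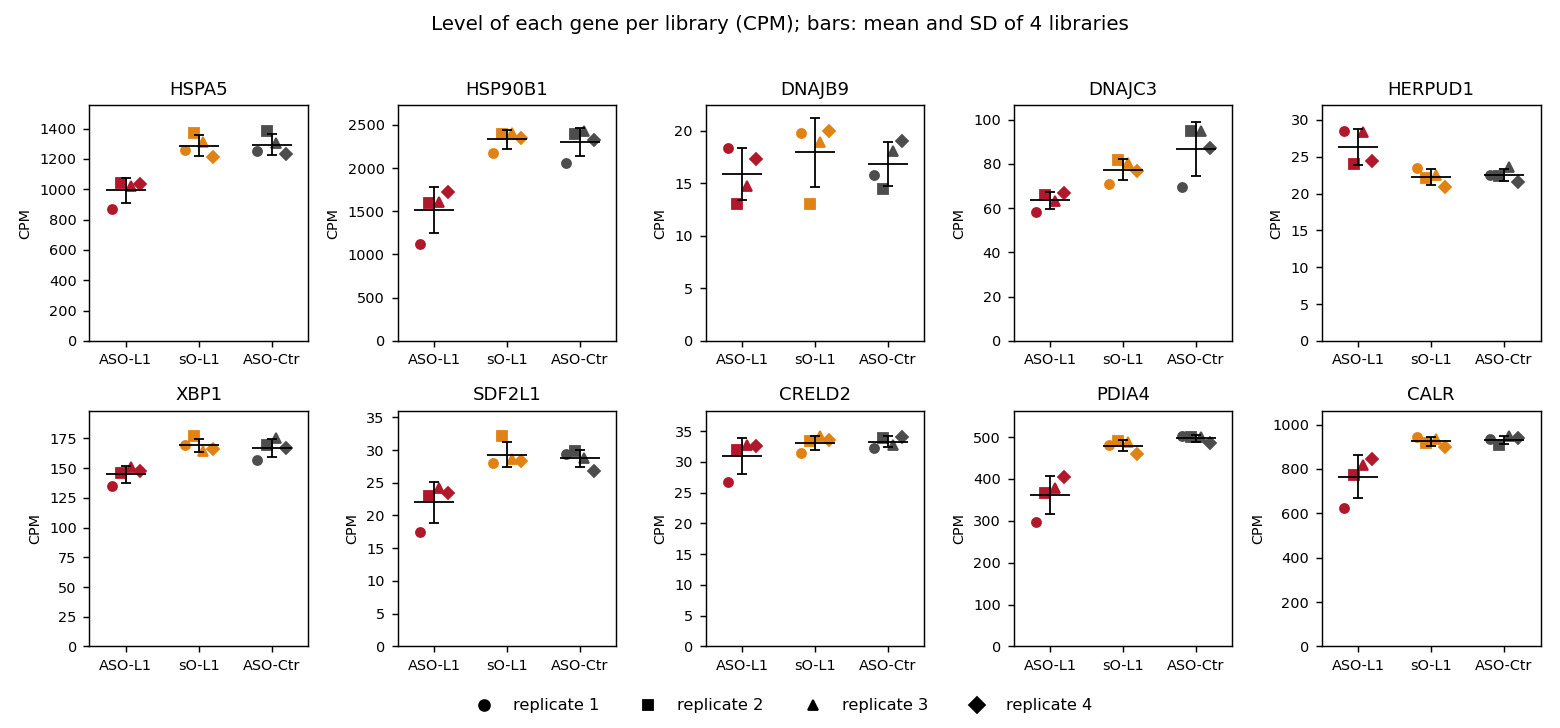
Level of each gene in CPM (y axis, from 0) in every library, with ASO-L1 in red, sO-L1 in orange and ASO-Ctr in grey; symbols mark replicates 1 to 4 and bars the mean and SD of 4 libraries. The red points lie below the others for HSPA5, HSP90B1, DNAJC3, XBP1, SDF2L1, PDIA4 and CALR, above them for HERPUD1, and among them for most libraries of CRELD2 and DNAJB9.

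The size of the fall differed between replicate numbers. ASO-L1 replicate 1 was the lowest of the 12 libraries for 8 of the 10 genes, the exceptions being HERPUD1 and DNAJB9. In HSP90B1 the log2 difference from ASO-Ctr was -0.88 in number 1, against -0.58, -0.60 and -0.43 in numbers 2 to 4. The pattern was alike in PDIA4, at -0.76, -0.45, -0.40 and -0.26, and in CALR, at -0.58, -0.23, -0.21 and -0.15. In DNAJC3 the difference from ASO-Ctr, whose replicate 1 was low, was smallest in number 1, at -0.25, against -0.52, -0.59 and -0.39 in numbers 2 to 4. From sO-L1 it was -0.29, -0.30, -0.35 and -0.20, smallest in number 4. Against ASO-Ctr, the fit without ASO-L1 replicate 1 gave log2 fold changes of -0.52 for HSP90B1, -0.47 for DNAJC3, -0.37 for PDIA4 and -0.33 for HSPA5. In the same fit SDF2L1 was at -0.29, CALR at -0.19 and XBP1 at -0.18, and each of these genes was still called. HERPUD1 was at 0.19 and still called. DNAJC3 was thus as low without that library as with it.

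**Figure D4:**
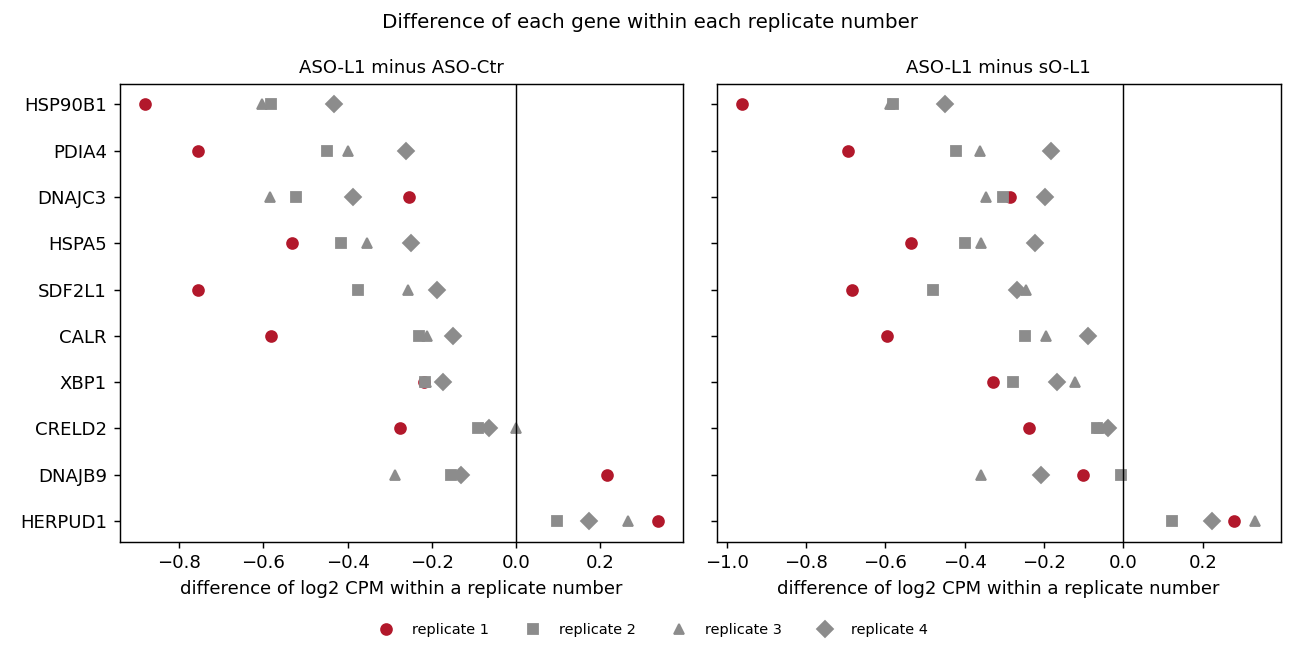
Difference of log2 CPM within each replicate number (x axis) for each of the 10 genes, ASO-L1 minus ASO-Ctr on the left and ASO-L1 minus sO-L1 on the right; red circles are replicate 1 and grey symbols replicates 2 to 4. In HSP90B1, PDIA4, SDF2L1 and CALR replicate 1 lies far left of the others, in XBP1 against ASO-Ctr the 4 values lie between -0.22 and -0.17, and HERPUD1 lies right of 0 in every number.

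The sense oligonucleotide left the 10 genes near the level of the control antisense oligonucleotide. Of the 10 genes 0 were called between sO-L1 and ASO-Ctr by edgeR, where 0.22% of all genes were called lower and 0.0695% higher. At an unadjusted p under 0.05 edgeR found 1, DNAJC3, DESeq2 called 0 and found 1 unadjusted, and limma on the authors' log2 values called 0. Nor did the groups separate for any of the 10 genes, against 1.99% of all genes lying wholly lower and 1.24% wholly higher. The log2 fold change of HSPA5 was -0.01 (interval -0.10 to 0.08) and that of HSP90B1 0.02 (interval -0.10 to 0.15), so falls of the size seen with ASO-L1 lie outside these intervals. DNAJC3 had -0.16 (interval -0.27 to -0.04, edgeR adjusted p = 0.417), with replicate numbers 2 to 4 at -0.22, -0.24 and -0.19 and number 1 at 0.03. Without the libraries numbered 1 DNAJC3 was called lower in sO-L1, at an adjusted p of 0.00354.

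Other genes of the ER were called in both directions. Of 24 further chaperones and folding enzymes tested, 11 fell, 4 rose and 9 were not called in ASO-L1 against ASO-Ctr, with a median log2 fold change of -0.11. That is 45.8% of the list lower and 16.7% higher, against 23.1% and 21.2% of all genes tested. HYOU1, a large Hsp70-type nucleotide exchange factor for HSPA5, averaged 447 ± 24.6 CPM in ASO-L1 and 514 ± 10.5 CPM in ASO-Ctr (SD, n = 4 each; log2 -0.20, edgeR adjusted p = 0.000947). MANF, a small ER protein that binds HSPA5, averaged 72.5 ± 8.21 CPM in ASO-L1 and 89.0 ± 5.46 CPM in ASO-Ctr (log2 -0.30). PDIA3, the disulfide isomerase that works with calreticulin, had a log2 fold change of -0.16. Among those that rose, ERO1L, the oxidase that recharges disulfide isomerases, averaged 68.6 ± 9.58 CPM in ASO-L1 and 53.7 ± 5.98 CPM in ASO-Ctr (log2 0.35), followed by ERP29 at 0.23 and SDF2, a homologue of SDF2L1, at 0.19. Against sO-L1 12 of the 24 fell and 4 rose (50% and 16.7%, against 22.9% and 21.1% of all genes), with PDIA6 at a log2 fold change of -0.22 and DNAJC1 at 0.39 among those with the smallest adjusted p.

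Genes of ER-associated degradation were also called in both directions. Of 23 tested, 7 rose and 7 fell in ASO-L1 against ASO-Ctr, with a median of 0.01, and against sO-L1 5 rose and 7 fell. These shares, 30.4% each way against ASO-Ctr, lie near the 23.1% of all genes called lower and 21.2% called higher, so the count is no result about the list. Against sO-L1 the shares were 21.7% higher and 30.4% lower, beside 21.1% and 22.9% of all genes. AUP1, which recruits ubiquitin-conjugating enzymes to the ER membrane, rose by 0.51 on the log2 scale (edgeR adjusted p = 4.01e-06), VIMP, a selenoprotein that links VCP to the ER membrane, by 0.31 and TMUB1 by 0.27. DERL3, a Derlin of the retrotranslocation complex, was at -0.56 and at 3.64 ± 0.806 CPM in ASO-L1 against 5.37 ± 0.371 CPM in ASO-Ctr. The lectin ERLEC1 was at -0.24 and VCP, the ATPase that extracts proteins from the membrane, at -0.17. Against sO-L1, UBXN4, which binds VCP, was lower at -0.22.

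Among 31 genes of translocation, glycosylation and vesicle transport, 8 rose and 9 fell in ASO-L1 against ASO-Ctr, with a median of 0.01, and 8 rose and 8 fell against sO-L1. With 25.8% higher and 29% lower against ASO-Ctr, this list too lies near the 21.2% and 23.1% of all genes. Against sO-L1 the shares were 25.8% each way, near the 21.1% of all genes called higher and 22.9% called lower. SEC24D, a cargo adaptor of COPII vesicles, averaged 45.0 ± 7.83 CPM in ASO-L1 and 69.8 ± 3.84 CPM in ASO-Ctr (log2 -0.64, edgeR adjusted p = 1.24e-06), while the signal peptidase subunit SPCS3 was at -0.20 and the oligosaccharyltransferase subunit STT3B at -0.20. SEC11C, a catalytic signal peptidase subunit, was at 0.44, the translocon partner SEC62 at 0.19 and RPN1, another oligosaccharyltransferase subunit, at 0.15. Against sO-L1, KDELR3, a receptor that returns escaped chaperones to the ER, was at -0.69 and SEC63, a translocon partner of HSPA5, at 0.20.

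Of 10 sensors and activating proteases 3 fell and 0 rose in ASO-L1 against ASO-Ctr, and 30% lower in so short a list is near the 23.1% of all genes called lower. CREB3L2, an ER-bound transcription factor related to ATF6, averaged 46.4 ± 6.57 CPM in ASO-L1 and 85.9 ± 4.44 CPM in ASO-Ctr (log2 -0.89, edgeR adjusted p = 3.34e-08). ATF6B was at -0.32, and ATF6 averaged 37.7 ± 3.48 CPM in ASO-L1 and 42.5 ± 2.59 CPM in ASO-Ctr (log2 -0.18, adjusted p = 0.0154). Against sO-L1, CREB3L2, ATF6B and CREB3L4 fell and ERN1 rose, the last at 1.77 ± 0.301 CPM in ASO-L1 against 1.27 ± 0.304 CPM in sO-L1 (adjusted p = 0.034). The shares against sO-L1 were 30% lower and 10% higher, beside 22.9% and 21.1% of all genes. RNA levels do not report the cleavage or phosphorylation of the proteins in this list.

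Most genes of the ATF4 branch rose. Of 14 genes tested 13 rose and 1 fell in ASO-L1 against ASO-Ctr, with a median log2 fold change of 0.98, and 12 rose and 1 fell against sO-L1. The shares called higher were 92.9% and 85.7%, against 21.2% and 21.1% of all genes. ATF5 averaged 124 ± 47.4 CPM in ASO-L1 and 20.3 ± 1.74 CPM in ASO-Ctr (log2 2.55, edgeR adjusted p = 1.03e-09), TRIB3 had a log2 fold change of 2.17 and SESN2 of 1.23. DDIT4 was at -0.29 (edgeR adjusted p = 0.0495). NUPR1 was under the filter. Side by side, HERPUD1 had a log2 fold change of 0.22 in the same comparison and HSPA5 one of -0.39. Any part of ATF4 in the values of these 2 genes was not tested.

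Heat shock proteins outside the ER give a further set of chaperones. Of 20 genes 5 rose and 4 fell in ASO-L1 against ASO-Ctr, with a median of 0.04, and 8 rose and 4 fell against sO-L1. The 25% higher and 20% lower against ASO-Ctr lie near the 21.2% and 23.1% of all genes, and against sO-L1 the shares were 40% higher and 20% lower, beside 21.1% and 22.9% of all genes. HSP90AA1, the inducible cytosolic counterpart of HSP90B1, averaged 3525 ± 346 CPM in ASO-L1 and 3147 ± 321 CPM in ASO-Ctr (log2 0.16), and the cytosolic J-domain protein DNAJA1 was at 0.23. DNAJB1 was at -0.23, HSPA1B at -0.21 and HSPA4L at -0.50. The small heat shock protein HSPB8 averaged 13.5 ± 7.52 CPM in ASO-L1 and 1.63 ± 0.672 CPM in ASO-Ctr (log2 2.98). HSPD1, the mitochondrial chaperonin, was at 0.16 against sO-L1. HSPA1B and its copy HSPA1A share nearly all their sequence, so the split of reads between them is uncertain. Between sO-L1 and ASO-Ctr edgeR called 0 genes in each of these lists.

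**Figure D5:**
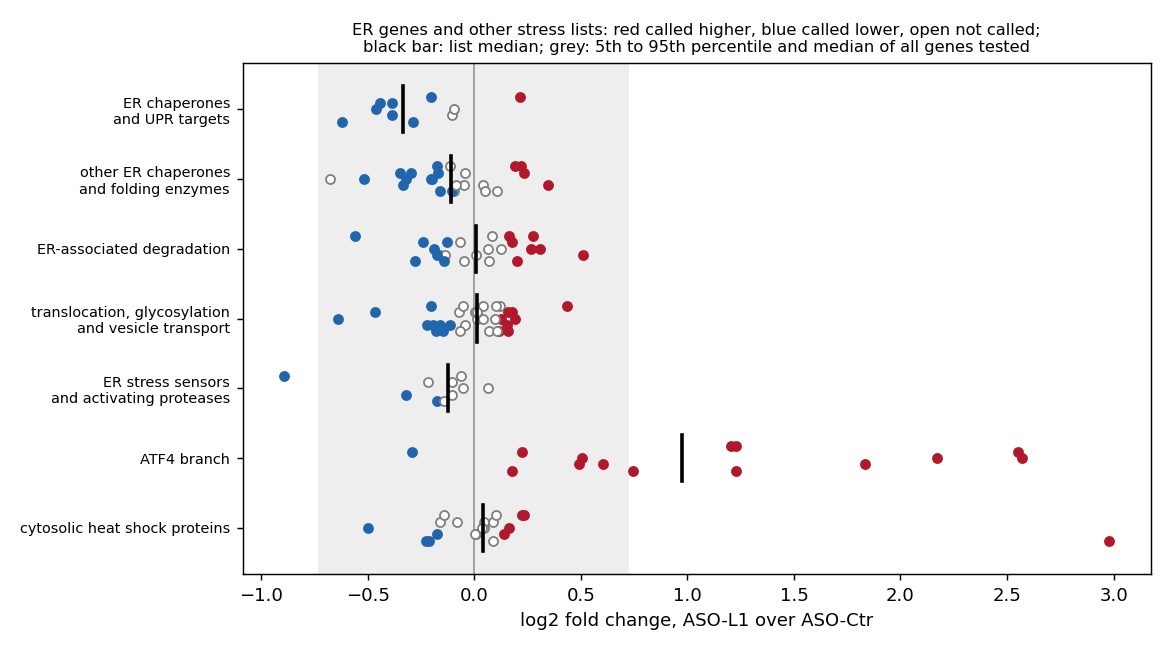
Log2 fold change, ASO-L1 over ASO-Ctr (x axis), of the 10 genes and of the genes of 6 other lists; red points were called higher, blue points lower and open points were not called, black bars are list medians, and the grey band spans the 5th to 95th percentile of all genes tested, -0.73 to 0.72. The 10 genes have a median of -0.34 and lie within the band, while the ATF4 branch has a median of 0.98.

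Over the 12 libraries the chaperones followed each other closely. As a description, Pearson's r of log2 CPM with HSPA5 was 0.964 for PDIA4, 0.963 for SDF2L1, 0.962 for HSP90B1, 0.942 for XBP1, 0.900 for CALR, 0.851 for DNAJC3 and 0.750 for CRELD2, with -0.03 for DNAJB9 and -0.80 for HERPUD1. The points fall into ASO-L1 libraries and the others, and share library and depth, so r mostly restates that separation. Of 9838 genes outside the set with enough counts, the 8 most like HSPA5 had r from 0.977 to 0.990. They were KIAA1467, LDB2, UNC13B, NLGN4X, ZNF395, NELL2, ZFAND3 and PXDN, of which PXDN is a secreted peroxidase of the extracellular matrix. LDB2 averaged 13.01 ± 3.20 CPM in ASO-L1 and 27.1 ± 1.52 CPM in ASO-Ctr, and PXDN 207 ± 25.1 CPM in ASO-L1 and 310.0 ± 19.2 CPM in ASO-Ctr (SD, n = 4 each).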

How the data were processed

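Poly(A) RNA of 12 libraries, 3 groups of 4, was sequenced from 80 to 130 ng of RNA, per the labels' protocols. Tools named in the submitters' processing notes are featureCounts, Subread 1.5.0, TopHat2 2.0.13 and Trim Galore 0.4.0, with the build hg19. The annotation, the strand setting of counting and the role of each tool are not given in the sources used here. The authors deposited raw counts labelled rmDup, read here as removal of duplicate reads. If so, abundant genes such as HSP90B1 would be lowered most, to an extent that is not known. The authors also deposited batch-corrected log2 values of 20187 genes, and their log2 fold changes, p-values and adjusted p-values for ASO-L1 against sO-L1 in 20856 genes. Its moderated statistic and log odds, scores deposited by the authors, were not used.

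Counts were analysed in R 4.3.3 with edgeR 4.0.16 (TMM, filterByExpr at 10 counts). Two-sided quasi-likelihood F-tests used a model of group plus replicate number over the 12 libraries. The biological coefficient of variation was 0.0634, with 6 residual and 10.8 prior degrees of freedom. P-values were adjusted over 17264 genes (Benjamini-Hochberg). Levels are CPM with TMM factors, and differences within a replicate number use a prior count of 2. Alternatives were DESeq2's size factors, DESeq2 1.42.0, library totals, no filter, no replicate block, limma 3.58.1 on the authors' log2 values, and leaving out each replicate number and each library.

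In 10549 genes, centred within each group, the 12 pairs of libraries of the same number deviated together (r 0.216 to 0.725), so the number was kept as a block. The median r for different numbers was -0.22, which the centring itself draws below 0 where same numbers agree. Within groups, chi-squared per gene between replicates was 3.00 to 29.0, above counting error, and 0 pairs were identical. The 10 genes and the gene lists, written from general knowledge, were chosen with earlier results of these data known. From each list and comparison, the text names up to 3 genes called higher and up to 3 called lower, those with the smallest adjusted p. HSPA5-like genes needed an average log2 CPM of at least 3. Protein sequences were not used here.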

Additional observations from a re-analysis of the deposited data

Results flagged for a closer look

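For each of the 10 genes in each of the 3 groups, the library farthest from the others was compared with Dixon's 95% limit. Of these 30 sets 6 passed, where chance flags about 1 in 20 of independent sets. These sets share 12 libraries and several of the genes follow each other, so they are not independent and no excess is read from this. ASO-L1 replicate 1 was the low library in 3 of the 6 sets, at 868 CPM for HSPA5, 17.4 CPM for SDF2L1 and 26.7 CPM for CRELD2. Replicate 2 of sO-L1 was low for DNAJB9, at 13.1 CPM, and high for SDF2L1, at 32.1 CPM. Replicate 4 of ASO-Ctr was low for PDIA4, at 485 CPM, in a group that otherwise lay between 499.6 and 502 CPM.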

How the results depend on the processing

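The calls of the 7 genes that fell held in both ASO-L1 comparisons under each of the 6 other settings and the 12 leave-outs that concern each comparison, and HERPUD1's in all but the leave-out of number 3, where 0 genes of the set were called higher. Leave-outs gave 0 to 1 called higher in each ASO-L1 comparison, and 0 to 1 called, in that case lower, between sO-L1 and ASO-Ctr. Without the replicate block, 8 of the 10 genes were called in each ASO-L1 comparison, as with the block, and HSPA5 had a log2 fold change of -0.38 against ASO-Ctr. Without the block 34.1% of all genes were called against ASO-Ctr and 33.5% against sO-L1, where 44.3% and 44% were called with it, and the lists lost calls too. Against ASO-Ctr 9 other ER chaperones, 9 degradation genes, 4 heat shock proteins and 2 sensors were then called. So were 10 genes of the ATF4 branch and 14 of translocation, glycosylation and vesicle transport. Against sO-L1 11 other ER chaperones, 11 degradation genes, 4 heat shock proteins and 2 sensors were called. There the ATF4 branch had 10 calls and the list of translocation, glycosylation and vesicle transport 15. With limma on the authors' log2 values 5 sensors were called against ASO-Ctr and 1 degradation gene between sO-L1 and ASO-Ctr. The cause of these differences was not tested. DNAJB9 was called lower against ASO-Ctr without number 1, and against sO-L1 in 3 leave-outs and with limma (adjusted p = 0.0214). The limma fit takes no account of the batch correction already made to the authors' log2 values, so its p-values may be too small. Between sO-L1 and ASO-Ctr, uncalled log2 values crossed 0 in leave-outs, over -0.0363 to 0.0201 for HSPA5, -0.0417 to 0.0540 for HSP90B1, -0.0112 to 0.149 for DNAJB9, -0.0524 to 0.00372 for HERPUD1, -0.0120 to 0.0564 for XBP1, -0.00951 to 0.0994 for SDF2L1, -0.0328 to 0.0250 for CRELD2 and -0.0667 to 0.0335 for CALR, and CRELD2 was at 0.000355 with limma. A leave-out of 1 library keeps 3 in its group. Scalings moved the median of all genes by at most 0.00373 in log2. Depth limits DNAJB9, HERPUD1, SDF2L1 and CRELD2 most, which had at most 1876 counts in a library.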
